A study of Mus musculus with 8 samples.

Results

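The sites described here are called adenines that are followed by a cytosine on their own strand (AC sites). They were chosen from the sequence alone: each call in the 4 lists carries a context of 41 bases on the strand of the call, the called adenine is base 21, and a call was taken when base 22 was C. There were 2370 such calls among 17418 in all. The list of the KO S group held 519 AC sites among 3370 calls, that of WT S 915 among 7142, that of KO L 450 among 3044, and that of WT L 486 among 3862. Of all adenines in the listed contexts 8.46% were called in KO S, 8.37% in WT S, 8.23% in KO L and 8.16% in WT L. These percentages follow from cutting 1 context around each call, so they serve only as the level against which a rate of calling by sequence is read.

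The cells were TT2 mouse embryonic stem (ES) cells of the strain background C57BL6 x CBA, taken at passage 5 to 10 and kept without feeder cells. The KO groups carry the Alkbh1 knockout and the WT groups are wild type, and the number of knockout clones is not given in the sources used here. From all groups, chromatin was immunoprecipitated in its native state with a customized antibody against the histone variant H2A.X, and the recovered DNA was sequenced by single-molecule real-time (SMRT) sequencing in 2 parts that the labels name S and L. Each of the 4 groups had 2 replicates, and the labels point both to the same list. No spread between replicates can therefore be given: every interval below is a 95% interval that covers counting error or the spread between sites, treats sites as independent, and is not adjusted for the number of comparisons. A list of modified bases cannot show whether Alkbh1 was lost.

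N6-methyladenine (6mA) is a DNA base that carries a methyl group on the amino group of adenine. ALKBH1 belongs to the AlkB family of dioxygenases, enzymes that oxidise and so remove methyl groups from nucleic acids or proteins. In ciliates and green algae 6mA lies mostly on adenines followed by thymine, whereas in messenger RNA the METTL3 and METTL14 complex methylates adenines followed by cytosine. In SMRT sequencing a polymerase pauses at some modified bases. The IPD ratio, the time between incorporations at a base over the time predicted for unmodified DNA, gives the size of that pause.

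The following contexts show the kinds of AC site on which the results turn, with the called adenine and its cytosine in capitals, 5′ to 3′ on the called strand and with mm10 coordinates. The first pair had the letters GACT and CACC around the call, which were called often. The next 3 were called in every list or in 3 of the 4 lists, and all lie in the major satellite, the tandem repeat of mouse pericentromeres, as judged from shared 12-base words. The fifth is an ACG site, the rarest kind, and the last lies in a run of CA repeats.
KO S in Emilin2, chr17:71259744-71259784, minus strand: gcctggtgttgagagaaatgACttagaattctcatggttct
KO S and WT S in Gm33838, chr9:35305196-35305236, minus strand: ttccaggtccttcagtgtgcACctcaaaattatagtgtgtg
All 4 lists, chr14:19418225-19418265, plus strand: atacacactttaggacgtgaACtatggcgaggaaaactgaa
All 4 lists, chr14:19417630-19417670, plus strand: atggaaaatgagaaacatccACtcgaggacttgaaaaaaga
3 lists, chr2:98666585-98666625, plus strand: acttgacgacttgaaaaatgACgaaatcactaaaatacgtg
KO L, chr13:3037395-3037435, minus strand: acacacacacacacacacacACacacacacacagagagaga

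The lists were shallow at most bases. Coverage had a minimum of 6 in each list and medians of 12 in KO S, 14 in WT S, 11 in KO L and 11 in WT L, and the lowest score of a call was 20 in each. At AC sites the median coverage was 11, 13, 10 and 10 in the same order. Coverage counts passes or reads that need not come from different molecules.

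Cytosine followed the called adenine less often than it followed the other adenines of the same contexts. AC sites made up 15.4% of calls in KO S (14.2 to 16.7), 12.8% in WT S, 14.8% in KO L and 12.6% in WT L. Of the uncalled adenines of these contexts 18.7%, 18.1%, 18.1% and 17.7% were followed by cytosine. The difference was -3.27 percentage points in KO S (-4.51 to -1.95), -5.24 in WT S (-6.04 to -4.40), -3.32 in KO L (-4.60 to -1.95) and -5.12 in WT L (-6.19 to -3.98). The 4 lists thus shared the direction, and in KO S the interval reached 0 when calls with a score of 30 or more were kept (-2.203).

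Read as a rate, 7.08% of the AC adenines of the contexts were called in KO S (6.51 to 7.69), 6.09% in WT S, 6.83% in KO L and 5.94% in WT L. This was the lowest rate of the 4 possible next bases in every list. The nearest was adenine followed by adenine in KO S, at 7.16% (6.74 to 7.6), an interval that overlaps that of AC. An uncalled adenine just before a called one always counts as followed by adenine, which lowers that rate by an untested amount. Adenines followed by thymine had the highest rate, between 9.81% in KO L and 11.5% in WT S.

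**Figure D1:**
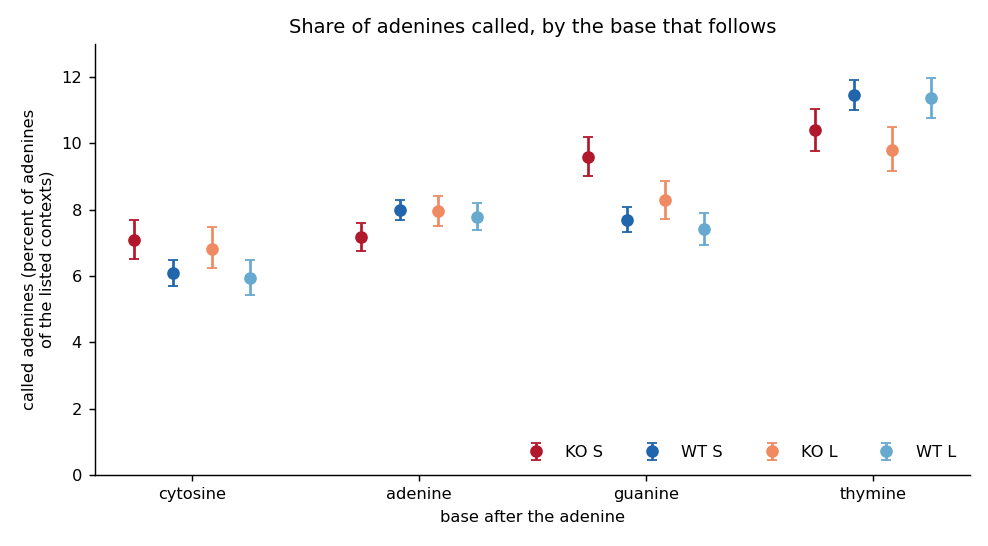
Share of adenines called, in percent of all adenines of the listed contexts (vertical axis), by the base after the adenine (horizontal axis) and by list; bars are 95% Clopper-Pearson intervals. AC adenines were called at 7.08% in KO S, 6.09% in WT S, 6.83% in KO L and 5.94% in WT L, and adenines followed by thymine at 9.81% or more. The called adenine of each context adds to the uncalled adenines followed by adenine.

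Within AC sites the base before the adenine was not the one that the background would give. Adenine preceded 20.04% of AC sites in KO S, 19.5% in WT S, 21.3% in KO L and 22.8% in WT L, against 30.5%, 30.6%, 30.6% and 30.6% of the other AC adenines. The AAC share was 0.657, 0.636, 0.698 and 0.746 of its background, with every interval below 1. The called adenine of a context can itself precede a background adenine, which raises the AAC background by an amount that was not tested. As these shares sum to the whole, the backgrounds of the other kinds are lowered in turn. CAC was the most frequent kind, with 34.1% in KO S, 34.6% in WT S, 32.9% in KO L and 32.7% in WT L, against 28.8% to 30.04% of the background. Its difference from the background excluded 0 in both S lists and included 0 in both L lists.

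GAC sites also had unequal values in the lists. They were 26.2% of AC sites in KO S and 22.95% in WT S, against 20.8% and 19.9% of the background, and both differences excluded 0. In KO L they were 20% and in WT L 20.8%, against 20.8% and 20.6%, with intervals that include 0. TAC sites stood above their background in WT S, KO L and WT L, by 2.75, 7.20 and 4.69 points, and at -0.232 points in KO S (-3.57 to 3.52).

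The base after the cytosine separated the sites further. ACA sites were 20.6% of AC sites in KO S, 29.5% in WT S, 34.7% in KO L and 34.2% in WT L, against 43.1%, 45.6%, 46.5% and 45.7% of the other AC adenines. The ratio of ACA to its background was 0.479 in KO S, 0.648 in WT S, 0.746 in KO L and 0.747 in WT L. Here too the called adenine of a context can be the last letter of a background ACA, which raises that background by an untested amount. The ACC, ACG and ACT backgrounds are lowered in turn. ACT was the most frequent kind, at 41.8%, 40.98%, 37.1% and 37.4%, and it stood above its background in each list by ratios of 1.48, 1.5, 1.34 and 1.32. ACC exceeded its background too, by ratios of 1.49 in KO S, 1.22 in WT S, 1.29 in KO L and 1.23 in WT L, and no interval of these ACT and ACC ratios reached 1.

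ACG sites, in which the call lies next to a CpG dinucleotide, the usual place of cytosine methylation in mammals, were few. There were 23 in KO S, 31 in WT S, 11 in KO L and 16 in WT L, or 4.43%, 3.39%, 2.44% and 3.29% of AC sites. The other AC adenines had G at that place in 6.56%, 5.79%, 5.88% and 5.65% of cases. The difference was -2.13 points in KO S (-3.72 to 0.0705), -2.41 in WT S (-3.47 to -0.975), -3.43 in KO L (-4.67 to -1.47) and -2.36 in WT L (-3.73 to -0.312). With so few sites the calls of these intervals changed under several filters, and in WT L the direction turned to 0.485 points at a coverage of 25 or more.

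**Figure D2:**
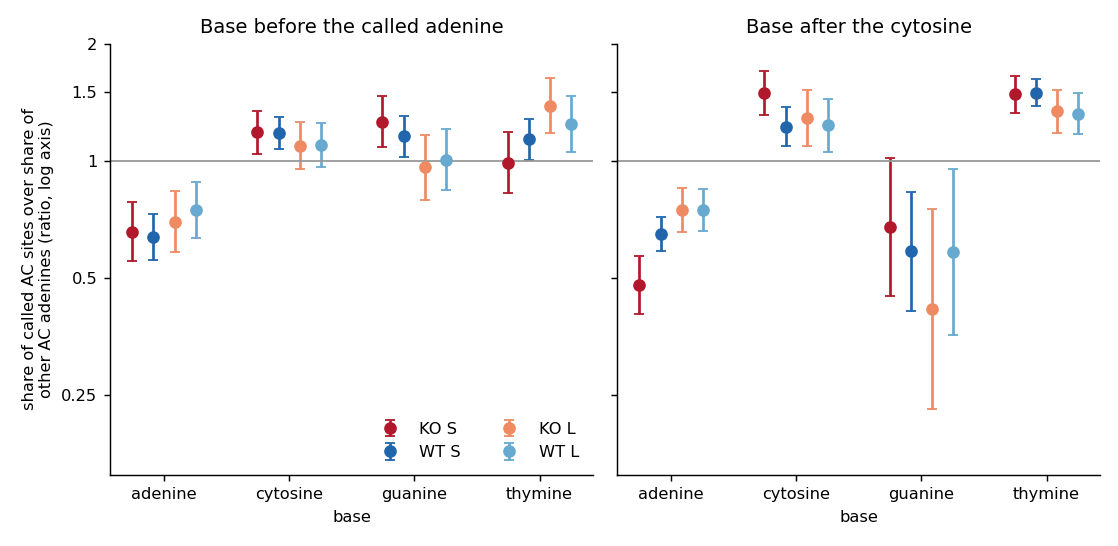
Ratio of the share among called AC sites to the share among other AC adenines (vertical log axis) for each base before the adenine (left panel) and each base after the cytosine (right panel), by list, with 95% intervals. Adenine lies below 1 on both sides in the 4 lists, with 0.479 for ACA in KO S as the lowest ratio for adenine, and cytosine and thymine after the cytosine lie above 1. The called adenine of each context adds to the background of adenine and lowers that of the other bases.

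Taking both neighbours at once, GACT was called at the highest rate of the 16 four-letter kinds in KO S, WT S and WT L, and TACT in KO L (12.4%). Of the GACT adenines 14.1% were called in KO S, 10.7% in WT S, 8.72% in KO L and 8.99% in WT L. Its share was 2.16 times the background in KO S (1.67 to 2.78), 1.85 in WT S (1.5 to 2.29), 1.30 in KO L (0.929 to 1.83) and 1.56 in WT L (1.14 to 2.14). CACT stood above its background in all 4 lists, by 1.80, 1.72, 1.51 and 1.36, with every interval above 1. TACT had ratios of 1.76, 1.93 and 1.48 in WT S, KO L and WT L, and of 0.955 in KO S (0.653 to 1.40). The called adenine raises the background shares of kinds that begin or end in adenine and lowers the others, by an untested amount.

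AACA lay at the other end among the kinds with many sites. It had 22, 53, 28 and 27 sites in KO S, WT S, KO L and WT L, and ratios of 0.320, 0.429, 0.439 and 0.422 to its background. AACG had 4, 3, 1 and 2 sites, too few for an order among the rarest kinds. TACA, which also ends in ACA, was below its background in both S lists (0.580 in KO S and 0.778 in WT S) and at 1.13 and 1.19 in KO L and WT L, with intervals that include 1.

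Some longer words were looked up after their values had been seen, and they are a description only. GGACT, a form of the word that RNA methylation by METTL3 and METTL14 prefers, surrounded 14 AC sites in KO S, 21 in WT S, 11 in KO L and 8 in WT L. That was 2.7%, 2.3%, 2.44% and 1.65% of AC sites, against 1.38%, 1.34%, 1.59% and 1.14% of the background, and the difference excluded 0 in both S lists only. GGAC as a whole differed from the background by at most 1.22 points, with intervals that include 0 in the 4 lists. CGAC had 16, 23, 9 and 10 sites, or 3.08%, 2.51%, 2% and 2.06%, against 1.22%, 0.967%, 1.20% and 0.992%. Its difference excluded 0 in KO S, WT S and WT L, and in KO L it was 0.795 points (-0.199 to 2.57). In KO L, AGAC differed by 2.42 points (0.00133 to 5.49) and TGAC by -2.69 (-4.14 to -0.520). The intervals of AGAC and TGAC in the other lists, and those of GAACT in all lists, included 0.

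AC sites also shared bases that lie farther downstream. Guanine stood 7 bases after the called adenine in 32.4% of AC sites in KO S, 33.2% in WT S, 34% in KO L and 31.5% in WT L. At the same distance from the other AC adenines it stood in 19.2%, 19.05%, 18.3% and 19.6% of cases. The differences were 13.2 points in KO S (9.09 to 17.5), 14.2 in WT S (11.1 to 17.4), 15.7 in KO L (11.2 to 20.4) and 11.9 in WT L (7.70 to 16.3). For calls followed by adenine the same difference was 0.601, 1.38, 1.48 and 0.251 points. It was 5.12, 6.37, 6.46 and 7.66 points for calls followed by guanine, and 7.04, 9.32, 3.69 and 5.88 for calls followed by thymine.

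Guanine at this distance was followed up after its value had been seen. The difference was smaller among calls with a score of 30 or more in KO S (2.49) and WT L (6.44), and -0.158 in WT L among calls with an identification score of 20 or more. The identification score is the caller's own value for the match of a call to 6mA.

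Between the cytosine and that guanine, more places differed from the background in the 4 lists. Thymine 3 bases after the adenine was more frequent by 10.97, 7.25, 13.5 and 7.52 points in KO S, WT S, KO L and WT L. Calls followed by guanine had this too, at 20.1, 14.2, 13.8 and 12.1 points, and calls followed by adenine or thymine had between 0.465 and 7.16. Cytosine 4 bases after it was more frequent by 12.6, 9.52, 7.005 and 4.35 points, and thymine was less frequent there, with differences of -11.8, -9.43, -9.07 and -7.26 points. For calls followed by adenine, thymine at that place differed by 0.00716, 1.98, 0.139 and 4.26 points. It differed by -3.03, -0.644, -1.13 and -0.919 points for calls followed by guanine and by -2.81, -2.38, -1.33 and -1.61 for calls followed by thymine. A lower share was thus found for 3 of the 4 next bases, and a test between them was not run. Thymine 5 bases after the adenine was more frequent by 7.48, 7.56, 10.1 and 5.60 points, and for calls with the other next bases it was more frequent by between 3.15 and 8.5. Adenine was less frequent 7 and 8 bases before the call and 9 and 10 bases after it in the 4 lists, and so it was for calls with each other next base. At 9 bases after the call, for example, the difference was -8.81, -7.44, -6.86 and -5.96 points for AC sites and -6.24, -8.09, -7.17 and -7.58 for calls followed by adenine. Each background adenine used here has the called adenine of its context within 10 bases. That raises the adenine background at these places by an amount that was not tested. It lowers the background of the other bases in turn, guanine 7 bases after the call among them.

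**Figure D3:**
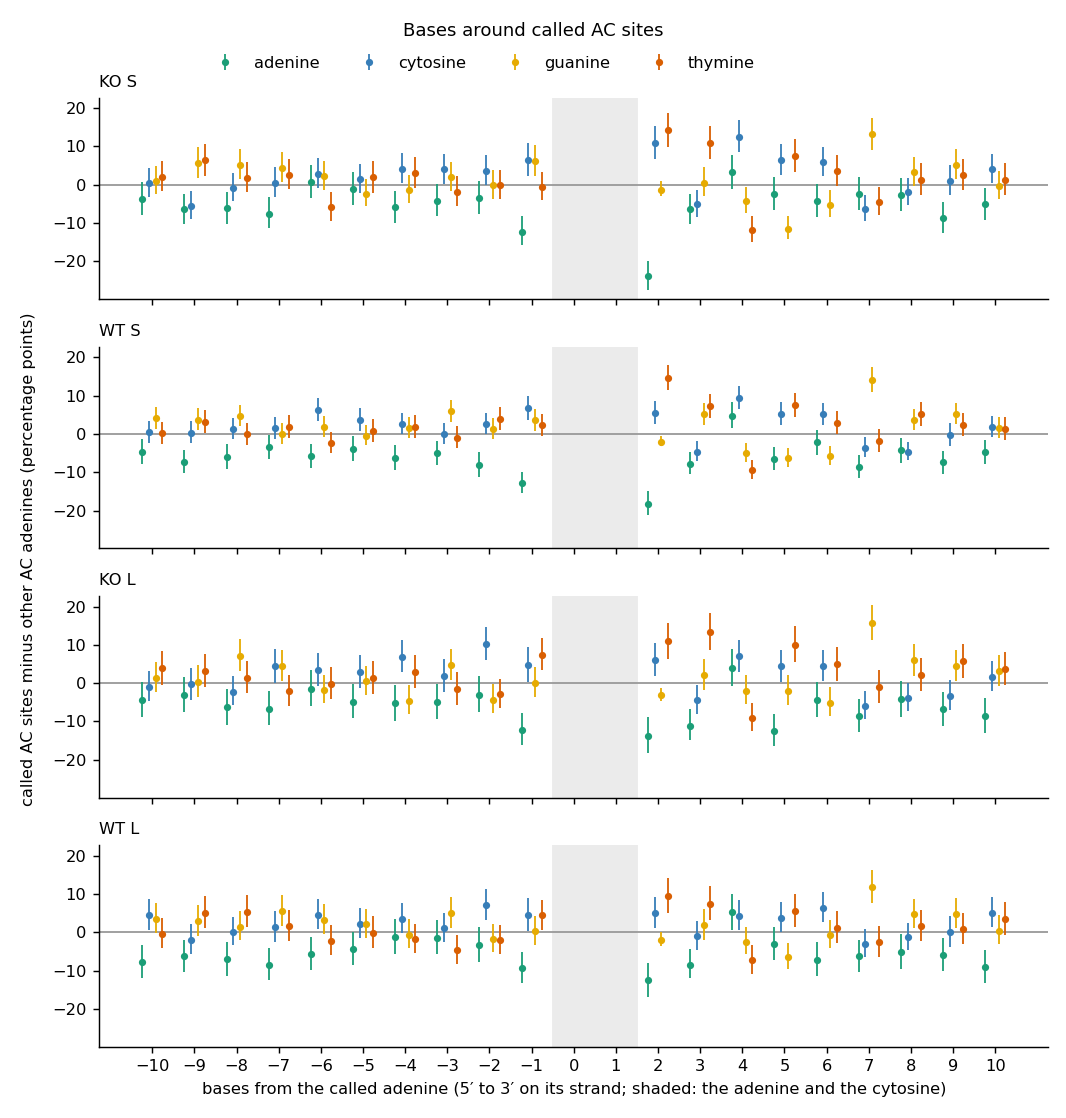
Share of each base around called AC sites minus its share around other AC adenines, in percentage points (vertical axis), by distance from the called adenine in bases (horizontal axis), with 1 panel per list; the shaded places are the adenine and the cytosine. Adenine is low and thymine and cytosine are high 2 bases after the call, and guanine is high 7 bases after it, by 13.2, 14.2, 15.7 and 11.9 points. The called adenine of each context adds to the background of adenine and lowers that of the other bases.

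The pause of the polymerase at AC sites was slightly longer than at other calls in 3 of the 4 lists. The median IPD ratio was 2.75 in KO S (2.66 to 2.86), 2.71 in WT S (2.64 to 2.79), 2.605 in KO L (2.54 to 2.7) and 2.72 in WT L (2.63 to 2.86). At the other calls it was 2.64, 2.54, 2.565 and 2.54. The shift between the 2 sets was 0.10 in KO S (0.02 to 0.18), 0.14 in WT S (0.08 to 0.20), 0.04 in KO L (-0.04 to 0.12) and 0.14 in WT L (0.06 to 0.22). Calls followed by guanine had medians above those of AC sites (2.87, 2.84, 2.75 and 2.87), and calls followed by adenine had lower ones (2.49, 2.38, 2.47 and 2.43).

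Coverage moves with this shift. AC sites were 16.6% of calls at coverage 6 to 10 in KO S and 11.7% at 25 or more, and 14.1% and 5.86% in WT L. With both sets weighted to the same coverage classes the shift was 0.0451 in KO S (-0.0282 to 0.118), -0.0338 in KO L (-0.106 to 0.0384) and 0.0463 in WT L (-0.0245 to 0.117), and only that of WT S still excluded 0. Its part in the result beyond this weighting was not tested.

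The modified fraction, the share of molecules that the caller estimates to be modified at the base, set AC sites further apart. It was given only at a coverage of 11 or more, which left 278 AC sites in KO S, 605 in WT S, 200 in KO L and 219 in WT L, and it was examined after the other values had been seen. Its median was 83.8% at AC sites in KO S, 78.9% in WT S, 75.65% in KO L and 79.2% in WT L, against 68.6%, 65.7%, 59.3% and 63.1% at the other calls. The shift was 7.1 points in KO S (2.8 to 11.1), 7.4 in WT S (4.6 to 10.2), 11.6 in KO L (6.4 to 16.5) and 12.1 in WT L (7.4 to 16.8). Without satellite contexts it was smaller, at 4.8 points in KO S (1.5 to 8.9), 6.1 in WT S (3.3 to 8.8), 6.4 in KO L (1.6 to 11.5) and 7.8 in WT L (3.3 to 12.2).

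A fraction under 50% was rarer at AC sites. It was found at 20.1% of AC sites in KO S, 17.9% in WT S, 23% in KO L and 16.4% in WT L, against 31.9%, 33.3%, 39.5% and 36.7% of the other calls. Within the coverage class 11 to 24 the shift of the fraction was 3.6, 4.5, 8.1 and 6.4 points, smaller than over all classes in each list. Calls followed by thymine had the highest medians (87.4%, 86.6%, 78.0% and 83.2%), and the shift of AC sites against them was 0 or had an interval that reached 0 in the 4 lists. Against calls followed by adenine it was 21.2, 20.1, 21.2 and 25 points.

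High identification scores were rarer at AC sites. A score of 20 or more was reached by 11.4% of AC sites in KO S, 12.02% in WT S, 7.33% in KO L and 9.67% in WT L, against 15.1%, 16.8%, 14.3% and 12.2% of the other calls. The difference excluded 0 in KO S, WT S and KO L, and in WT L it was -2.53 points (-5.12 to 0.605). The shift of the score itself was 0 in each list at coverage 6 to 10. At coverage 11 to 24, and also without satellite contexts, it was -1 in KO L and 0 in the other lists. Whether coverage and the satellite account for the difference in high scores was not tested.

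**Figure D4:**
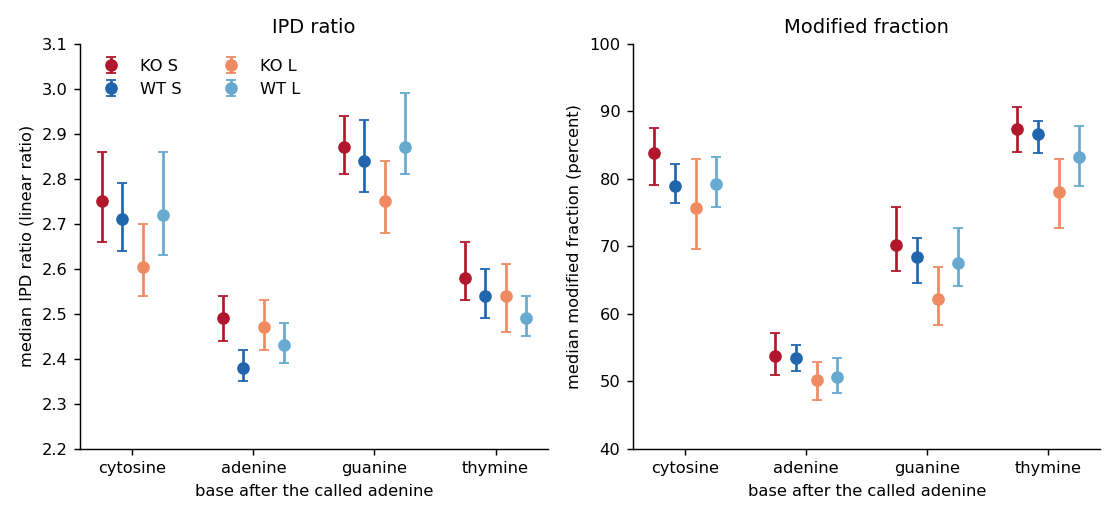
Median IPD ratio (left) and median modified fraction in percent (right) of calls by the base after the called adenine and by list, with 95% order-statistic intervals. AC sites lie below calls followed by guanine in IPD ratio (2.75 and 2.87 in KO S) and above them in modified fraction (83.8% and 70.2% in KO S).

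Among AC sites the pause was also compared by the neighbouring bases. GAC sites had higher IPD ratios than CAC sites by 0.11 in KO S (-0.08 to 0.31), 0.21 in WT S (0.04 to 0.38), 0.13 in KO L (-0.10 to 0.37) and 0.24 in WT L (0.03 to 0.45). ACG sites had median IPD ratios of 2.73 in KO S, 2.28 in WT S, 2.34 in KO L and 2.59 in WT L, against 2.75, 2.72, 2.61 and 2.73 at the other AC sites. The shift was -0.02 in KO S (-0.46 to 0.39), -0.53 in WT S (-0.83 to -0.21), -0.51 in KO L (-1 to 0.11) and -0.19 in WT L (-0.73 to 0.47). Only in WT S did its interval exclude 0.

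ACG sites had low modified fractions, with a median of 37.9% in KO S, 52.3% in WT S, 22.3% in KO L and 71.3% in WT L, against 84.4%, 80.0%, 75.8% and 80.7% at the other AC sites. The shift of the fraction was -27.2 points in KO S (-54.8 to -7.3) and -22.7 in WT S, and in KO L (-63.9 to 3.5) and WT L (-53.6 to 0.2) the interval included 0.

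The satellite moves with these ACG values. Words of the satellite were found around 21.7% of ACG sites in KO S, 29.0% in WT S, 36.4% in KO L and 25% in WT L, against 6.25%, 4.07%, 4.78% and 3.62% of the other AC sites. Without satellite contexts the median fraction of ACG sites was 74.8% in KO S, 74.85% in WT S and 75.4% in WT L, and the shifts were -7.3, -1.2 and 0 points with intervals that include 0. Too few ACG sites with a fraction were left in KO L. The shifts of the IPD ratio at ACG sites were then 0.25 in KO S, -0.12 in WT S, 0.09 in KO L and 0.33 in WT L, with intervals that include 0.

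The highest IPD ratios were single sites of low coverage. The top AC site of WT S, at chr14:54047776-54047816 on the plus strand, had an IPD ratio of 131 at a coverage of 6 and a score of 24. In KO S the top ratio was 23.3 at a coverage of 16, in KO L 12.3 at a coverage of 7 in the CA repeat printed above, and in WT L 13.1 at a coverage of 8.

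The sites lay in somewhat different surroundings from the other calls. Their contexts, leaving out the called adenine and the base after it, had a mean G plus C content of 44.5% in KO S, 43.4% in WT S, 43.4% in KO L and 43.8% in WT L, against 42.4%, 41.1%, 41.3% and 40.8% for the other calls. Calls followed by guanine had a higher mean than AC sites in each list, at 45.3%, 44.95%, 45.2% and 45.2%. A CG dinucleotide, to which the cytosine of the site can itself belong, was present in 40.1%, 34.2%, 35.3% and 36.0% of AC contexts, against 32.2%, 30.2%, 31.2% and 28.1%. Satellite words marked 36 AC sites in KO S, 45 in WT S, 25 in KO L and 21 in WT L. These were 6.94%, 4.92%, 5.56% and 4.32% of AC sites, against 11.1%, 8.05%, 12.4% and 9.95% of the other calls, and each difference excluded 0.

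AC sites also had fewer close neighbours. Another call lay within 10 bases of 4.62% of AC sites in KO S, 6.78% in WT S, 5.33% in KO L and 5.35% in WT L, against 7.82%, 11.4%, 8.56% and 8.56% of the other calls. GTAC reads the same on both strands, so the opposite strand carries an adenine of its own at the base pair just before the call. It surrounded 25, 40, 15 and 16 AC sites, and in none of them was the opposite adenine called. Any call within 10 bases on the other strand was found at only 1.73%, 2.19%, 2.22% and 1.65% of all AC sites. At that level, 0 among so few GTAC sites does not set them apart. Tandem repeats held 6, 15, 12 and 11 AC sites, or 1.16%, 1.64%, 2.67% and 2.26%, against 2.17%, 3.48%, 3.24% and 3.64% of the other calls, and the difference excluded 0 in WT S only. Of them 5, 11, 9 and 6 were repeats of 2 bases, which is 0.963%, 1.202%, 2% and 1.23% of AC sites, against 0.246%, 0.128%, 0.193% and 0.267% of the other calls. Each of these differences excluded 0, but the choice of the sites has a part in them. An adenine inside a CA repeat is always followed by cytosine, and 3, 8, 7 and 5 of these sites had C before and A after. An adenine inside a run of adenines never is. A comparison with other AC adenines was not run.

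Few AC sites recurred in more than 1 list. The 2370 calls fell on 2338 distinct bases, of which 2320 were in 1 list, 8 in 2, 6 in 3 and 4 in all 4. Of the AC sites 9 were shared by KO S and WT S, which is 1.73% of KO S and 0.984% of WT S, against 5.33% and 2.44% of the other calls. KO L and WT L also shared 9, which is 2% of KO L and 1.85% of WT L, against 5.09% and 3.91% of the other calls. Windows of 100 kb that held 10 or more calls in any list (dense windows) numbered 8. In them KO S and WT S shared 8 AC sites, or 21.6% of KO S (9.83 to 38.2) and 17.8% of WT S. The other calls there had 45.1% and 27.4%. KO L and WT L shared 9 in them, or 34.6% of KO L (17.2 to 55.7) and 40.9% of WT L, against 37.8% and 36.5%. Outside the dense windows 1 AC site was shared, between KO S and WT S. It was 0.207% of the AC sites of KO S there, against 8 of 2532 other calls, or 0.316%.

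That site is the one in Gm33838 printed above. It had a score of 127, a coverage of 131, an IPD ratio of 3.18 and a modified fraction of 67.8% in KO S. In WT S the score was 116, the coverage 161, the IPD ratio 2.45 and the fraction 47.9%. These coverages lie far above the AC medians of 11 in KO S and 13 in WT S. It had the highest score in both S lists of any AC site outside dense windows and outside contexts called satellite by their words. The first 21 bases of its context were nevertheless all equal to a stretch of a satellite context from another locus, and 11 satellite calls lay within 1000 bases of it. Whether the site belongs to the repeat was not tested.

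The 4 bases called in every list carried satellite words. The adenine at chr14:19418225-19418265 had IPD ratios of 2.78 in KO S, 2.33 in WT S, 2.30 in KO L and 2.06 in WT L, at coverages of 444, 900, 480 and 412. Its modified fraction was 52.8%, 38.2%, 39% and 30.5%. The adenine at chr14:19417630-19417670 had IPD ratios of 2.07, 2.12, 1.90 and 1.62. A base at chr14:19417703-19417743 had IPD ratios of 2.42, 2.02, 2.16 and 1.95. The fourth, at chr2:98666991-98667031, had lower ratios, 1.38, 1.51, 1.44 and 1.51, at coverages of 3986, 5199, 3803 and 4289. The ratio was higher in KO than in WT in both parts at the first base and at the third, in L only at the second, and in neither part at the base on chromosome 2.

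At most of these recurrent bases the cytosine itself was uncommon among the other called satellite contexts. Copies of the repeat without a call were not examined. Each context was laid on the other called satellite contexts without gaps, and the base at the place of the cytosine was read from those that overlapped by 25 or more bases with 90% or more of them equal. At 7 of the 10 bases called in 3 or 4 lists, cytosine stood there in under 2% of the other contexts, between 0.472% and 1.82%. These 7 bases had 5 distinct contexts, as 3 of them share 1 identical context. At the adenine of chr14:19418225-19418265 it was in 0.943% of 106 contexts, and 105 had adenine. At the other 3 bases it was in 84.8% to 100% of them. Over all satellite contexts with 5 or more others, the own next base was in the minority at 8 of 90 AC sites (8.89%), 9 of 342 calls followed by adenine (2.63%), 21 of 318 followed by thymine (6.60%) and 109 of 249 followed by guanine (43.8%). The 8 AC sites had 5 distinct contexts, and 4 of them share 1.

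Identical contexts also recurred at different bases. There were 19 contexts that were called at several bases, 48 in all, and 14 of them carried satellite words. The most frequent, shown here for its recurrence, was called at 5 bases of chromosome 9, in KO S, WT S and KO L.
chr9, between 3021497 and 3033836: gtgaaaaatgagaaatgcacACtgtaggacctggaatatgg

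Between genotypes, AC sites made up a larger share of the calls in the KO lists in both parts. In S the share was 15.4% in KO and 12.8% in WT, a difference of 2.59 points (1.17 to 4.06). In L it was 14.8% in KO and 12.6% in WT, a difference of 2.199 points (0.570 to 3.85). The differences in S and L differed by 0.390 points (-1.79 to 2.58). The background of AC adenines also differed, by 0.612 points in S (0.132 to 1.10) and 0.394 in L (-0.150 to 0.940). Relative to its own background the AC share was 1.16 times higher in KO than in WT in S (1.05 to 1.29) and 1.15 times in L (1.02 to 1.30).

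The difference was not confined to a few chromosomes. Of the 20 chromosomes 1 to 19 and X, 16 had the higher AC share in KO in S, 15 in L, and 11 in both parts. The median difference over chromosomes was 2.01 points in S and 3.46 in L. On chromosome Y, with 5 AC sites in KO S, 9 in WT S, 4 in KO L and 3 in WT L, it was 0.837 points in S and 4.57 in L. In S the interval reached 0 at a coverage of 25 or more, where the difference was 1.84 points. Among calls with an identification score of 20 or more, AC sites were 12.04% in KO S and 9.51% in WT S, but 8.19% in KO L and 10.2% in WT L. There the interval in S also reached 0, the direction turned in L, to -2.05 points (-5.92 to 1.89), and with a score of 30 or more the difference in L was 0.202 points. Since shares of the next base sum to the whole, the other next bases moved too: in S the KO minus WT difference was 6.47 points for guanine, -5.66 for adenine and -3.40 for thymine, and in L it was 2.32 for guanine (0.345 to 4.31), 0.212 for adenine and -4.73 for thymine.

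Some kinds of AC site differed between the S lists. As shares of all calls, GAC was higher in KO S than in WT S by 1.10 points (0.353 to 1.90), ACC by 1.76 (0.935 to 2.64) and ACT by 1.19 (0.239 to 2.2). Of the 16 four-letter kinds 10 were higher in KO S, and the interval excluded 0 for GACC (0.541 points), for GACT (0.608), for TACC (0.578) and for the rare CACG, with 8 sites in KO S and 5 in WT S. In L 13 of the 16 kinds were higher in KO, and none had an interval that excluded 0.

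Within AC sites, shares by the base after the cytosine differed between the S lists. ACA was 20.6% in KO S and 29.5% in WT S, a difference of -8.89 points (-13.3 to -4.22), while in L it was 34.7% in KO and 34.2% in WT, a difference of 0.510 points (-5.55 to 6.59). ACC was 33.1% in KO S and 26.1% in WT S, a difference of 7.02 points (2.12 to 12), and 25.8% in KO L and 25.1% in WT L. The ACA difference in S differed from that in L by -9.40 points (-16.9 to -1.75). It was the only one of 9 such differences with an interval that excluded 0, and ACA was followed up after its value had been seen. Among calls with an identification score of 20 or more the ACA difference in S turned to 4.39 points (-8.61 to 18.6). GAC within AC sites was 26.2% in KO S and 22.95% in WT S, a difference of 3.25 points (-1.33 to 7.99), and -0.782 points in L (-5.93 to 4.41).

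The pause at AC sites had intervals that reached 0 between genotypes. The shift of the IPD ratio, KO minus WT, was 0.03 in S (-0.06 to 0.13) and -0.10 in L (-0.20 to 0). The shift of the modified fraction was 0 in S (0 to 3.0) and -0.6 points in L (-5.5 to 0).

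**Figure D5:**
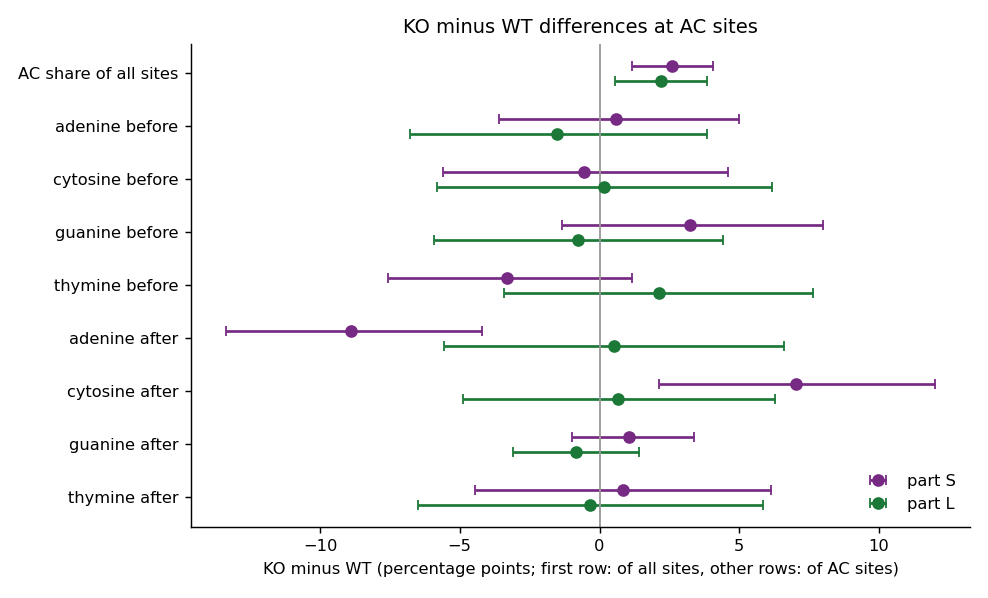
Difference between KO and WT in percentage points (horizontal axis) in S and in L, with 95% Newcombe intervals; the first row is the AC share of all calls and the other rows are shares of AC sites. The AC share lies above 0 in both parts (2.59 and 2.199), and ACA lies at -8.89 in S and at 0.510 in L.

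Between the parts, the AC shares had differences with intervals that include 0. S minus L was 0.617 points in KO (-1.14 to 2.37) and 0.227 in WT (-1.09 to 1.51). At a coverage of 25 or more the difference in WT was 3.99 points (1.05 to 6.47), and under 4 of the 9 alternatives it turned direction. In KO the kinds differed: ACA was lower in S than in L by 14.1 points and TAC by 6.12, and ACC was higher by 7.36 and GAC by 6.20, with intervals that exclude 0.

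By gene, AC sites were scattered. Sites on chromosomes 1 to 19, X and Y fell in a RefSeq gene in 53.0% of cases in KO S, 55.2% in WT S, 48.9% in KO L and 51.3% in WT L, against 46.9%, 49.5%, 47.2% and 50.2% of the other calls. The difference was 6.12 points in KO S (1.36 to 10.8), 5.74 in WT S (2.23 to 9.22), 1.67 in KO L (-3.37 to 6.74) and 1.03 in WT L (-3.78 to 5.81). In all, 1142 of 49943 genes held an AC site, 134 held 2 or more distinct ones and 14 held 3 or more. The gene table gives no exons, so a site is only said to lie between a gene's start and end.

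The genes with the most AC sites were mostly long ones. Igk, the immunoglobulin kappa light chain locus of 3171119 bases, held 6, with 1 in KO S, 4 in WT S, 0 in KO L and 1 in WT L. Calls with any next base numbered 2, 12, 5 and 5 there, in the same order. Ptprn2, a receptor-type phosphatase of secretory vesicles, held 4, with 3 in WT S and 1 in KO L, among 1, 6, 1 and 1 calls of any kind. Tspan14, a tetraspanin of 60647 bases, held 3 in WT S within 87 bases of each other and none in the other lists, and it had no other calls. Pcsk6, a proprotein convertase, held 3 in WT L, among 1, 1, 0 and 3 calls of any kind. The list of WT S was also the largest of the 4, so raw counts lean to it. Arhgap8, Dok5, Sh3rf1, Mllt3, Sox5, Erbb4, Asic2, Auts2 and Cdh13 were among the others with 3.

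In KO S the genes with the largest excess over WT S had 2 AC sites against 0. They included Tab1, an adaptor of the kinase TAK1 that overlaps Gm31253, Rasgef1b, an exchange factor for Ras-family GTPases, Lasp1, an actin-binding protein, and Gm29885. In KO L they were Insyn2a, Stox1, Itsn1, Rbfox3 and Dock1, and Insyn2a lies inside Dock1, so both count the same sites. In WT L, Tnfrsf11a, the RANK receptor, had 2 sites 6 bases apart. Counts of 2 against 0 are too small to set a gene apart.

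Promoter windows, 250 bases before to 50 bases after a gene's start, held 2 AC sites in KO S, 4 in WT S, 3 in KO L and 1 in WT L. These were 0.398%, 0.448%, 0.682% and 0.210% of AC sites, against 0.334%, 0.302%, 0.492% and 0.251% of the other calls. In KO S a site lay 6 bases after the start of Pex11g, a peroxisomal membrane protein, with an IPD ratio of 4.61 at a coverage of 11. Another lay 48 bases before a start of Ano2, a calcium-activated chloride channel, with an IPD ratio of 1.96. The same site was also counted as lying inside Ano2. In WT L a site lay 73 bases before the start of Ppp2ca, the catalytic subunit of protein phosphatase 2A, with an IPD ratio of 3.56.

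No AC site fell in the lists of related genes. All 17 genes of adenine methylation and the AlkB family, Alkbh1 among them, the 4 matched genes of H2A variants and all 20 pluripotency genes held 0 in each list. An AC site of any list lay in 2.29% of all genes, so 0 of so few genes is near the background. As the lists hold called bases only and the depth at these genes is unknown, no limit can be set for them.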

How the data were processed

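Called adenines were read from 4 lists, 1 for each genotype and part of the DNA, on mm10 per the submitters' processing notes. The files name kinModCall in their source column. For the caller's version, for aligner and filters and for how both replicates came into 1 list, the answer is not given in the sources used here. The deposited score of a call is on the caller's own scale. Coverage is a signal that the authors deposited unnormalized. The IPD ratio, also deposited, is linear. The modified fraction, its bounds and the identification score are the authors' values as well. No column belonged to an unmatched sample (0).

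The members and lists were chosen with earlier results of these data known. The background was every distinct uncalled adenine at places 2 to 39 of the contexts on the called strand. Shares have Clopper-Pearson intervals, their differences Newcombe intervals, medians order-statistic intervals, and shifts are Hodges-Lehmann estimates with rank-sum intervals. A context was called satellite when it held 3 or more 12-base words that occurred at 5 or more called bases of chromosome 9 below 3.1e+06. Dense windows were 100 kb with 10 or more calls in any list. Tandem repeats ran over 12 or more bases with a period of at most 4. Gene starts and ends came from RefSeq (GRCm38.p6). Named sites were the 3 of highest score per list outside satellite contexts and dense windows, and those called in 3 or 4 lists or in several lists outside dense windows. Named genes were the 15 with the most distinct AC sites and the 5 with the largest excess in each genotype and part; some of these sites and genes are not reported here. The sites of highest IPD ratio and those in promoter windows were named after their values were seen. Intervals were tested on simulated data. Python 3.11.15, pandas 2.3.3, NumPy 2.4.6 and SciPy 1.17.1 were used.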

Additional observations from a re-analysis of the deposited data

Results flagged for a closer look

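The change in ACA sites between genotypes differed between the parts. Of AC sites, ACA made up 20.6% in KO S and 29.5% in WT S, against 34.7% in KO L and 34.2% in WT L. The KO minus WT difference in S less that in L was -9.40 points (-16.9 to -1.75), the only one of 9 such differences with an interval that excluded 0. Among calls with an identification score of 20 or more, KO minus WT for ACA was 4.39 points in S and -0.709 in L, so the order of the parts turned there. In L it was also -13.7 at a coverage of 25 or more and -0.158 without tandem repeats. Each value comes from 1 list without replicates, and ACA was singled out after its values had been seen.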

How the results depend on the processing

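No paired analysis was possible because both replicates of a group are joined in 1 list, and leaving out each replicate was not run for the same reason. Of 256 values under alternatives, over 28 results, 192 kept direction and side of the interval, 39 kept the direction with an interval that then included 0, 3 gained one that excluded 0 and 22 turned. The cause was not tested. A coverage of 25 or more left 505 calls in KO S, 1331 in WT S, 430 in KO L and 461 in WT L. Some values also turned under other settings, such as leaving out satellite contexts, dense windows or tandem repeats.

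AC minus background in KO S was -2.203 points at a score of 30 or more. ACG minus background in KO S was -7.18 at a score of 30 or more and -2.23 with the background counted per context. In WT S it was -1.79 at coverage of 25 or more and -0.928 at an identification score of 20 or more, and in KO L -2.97, -3.66 and -3.11 under the filters on score, coverage and identification score. In WT L the same filters gave -4.92, 0.485 and -3.29, and it was -1.84 without satellite contexts, -1.81 without dense windows and -1.92 on chromosomes 1 to 19, X and Y.

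The KO minus WT difference of the AC share in S was 1.84 under the coverage filter and 2.53 under the identification filter. In L it was 0.202, 3.21 and -2.05 under the 3 filters. For GAC among AC sites it was -0.324 in S under the identification filter, and 8.94, 4.56 and 4.19 in L under the 3 filters. The AC share in WT, S minus L, was -0.0703, 3.99 and -0.732 under the 3 filters, of which 3.99 had an interval that excluded 0, -0.0769 without satellite contexts and -0.0247 without dense windows.

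The shift of the IPD ratio in KO S was 0.19, 0.08 and 0.07 under the 3 filters, 0.06 without satellite contexts, 0.05 without dense windows, 0.08 on chromosomes 1 to 19, X and Y and 0.0451 when weighted by coverage class. In WT S it was 0 under the identification filter. In KO L it was -0.04 and -0.24 under the coverage and identification filters, -0.02 without satellite contexts, -0.02 without dense windows and -0.0338 when weighted. In WT L it was -0.03, -0.04 and 0.0463 under the coverage filter, the identification filter and the weighting.

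Among alternatives added after seeing the data, ACA in KO minus WT turned to 4.39 in S under the identification filter, and in L to -13.7 and -0.709 under the coverage and identification filters and -0.158 without tandem repeats. Guanine 7 bases after the call turned to -0.158 in WT L under the identification filter, and of its other 31 values 24 kept their call. For the modified fraction 28 of 36 did.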
